A study of Mus musculus with 24 samples.

Results

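The microRNA clusters mir-23a/27a/24-2 and mir-23b/27b/24-1 were followed in BV2 cells, an immortalised mouse microglial line, and in the extracellular vesicles (EVs) that the cells release. The members were the 6 precursors mmu-mir-23a, mmu-mir-27a and mmu-mir-24-2 of the 23a cluster and mmu-mir-23b, mmu-mir-27b and mmu-mir-24-1 of the 23b cluster, taken by name from the 1187 precursors of the count tables. All 6 were present. Treatment lasted 72 h. The treated cultures had LPS, the lipopolysaccharide of bacterial walls, at 100 ng/mL, IL-10, an anti-inflammatory cytokine, at 50 ng/mL, or TGF-β, a growth factor that microglia depend on, at 50 ng/mL, and the others were controls. Small RNA was sequenced from cells and EVs of each, which gives 8 groups of 3 libraries. All groups share the 1 cell line, and the labels do not say whether libraries came from separate cultures, so p-values measure the spread between these libraries, which may be technical.

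A microRNA precursor is a hairpin cut from a longer transcript, and its mature strand guides Argonaute proteins to messenger RNAs through the seed near its 5′ end. The 23a and 23b clusters are paralogous: each gives a miR-23, a miR-27 and a miR-24 from a common transcript. The 23a cluster is a target of PU.1, the transcription factor of the myeloid lineage to which microglia belong, and in mouse progenitors it holds back B cell development. miR-23b is known to lower TAB2, TAB3 and CHUK, which carry signals to NF-kB. miR-27 lowers PPARγ, a nuclear receptor of fat storage and macrophage activation, and in human macrophages miR-27b is induced by LPS.

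The hairpins are shown because the copies of a pair share the stretch that gives the mature 3p strand. Capitals mark the longest run that both copies of a pair hold, and sequences are 5′ to 3′ from RefSeq on GRCm38.p6, in which all 6 precursors were matched.
mmu-mir-23a: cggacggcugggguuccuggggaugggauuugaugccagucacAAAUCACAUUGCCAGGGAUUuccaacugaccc
mmu-mir-23b: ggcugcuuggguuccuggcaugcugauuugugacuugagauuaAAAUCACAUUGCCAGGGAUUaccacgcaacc
mmu-mir-27a: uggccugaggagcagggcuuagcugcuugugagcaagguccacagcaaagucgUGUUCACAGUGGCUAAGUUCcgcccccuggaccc
mmu-mir-27b: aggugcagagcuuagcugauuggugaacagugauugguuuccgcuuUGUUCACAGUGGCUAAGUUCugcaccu
mmu-mir-24-2: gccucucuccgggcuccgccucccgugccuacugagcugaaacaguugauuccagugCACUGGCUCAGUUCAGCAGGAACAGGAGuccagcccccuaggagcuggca
mmu-mir-24-1: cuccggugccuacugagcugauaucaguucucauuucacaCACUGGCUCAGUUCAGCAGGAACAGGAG
The shared run was 20 bases in the miR-23 pair, 20 in the miR-27 pair and 28 in the miR-24 pair. It covered 18 of the 21 bases of miR-23a-3p, 18 of the 21 bases of miR-27a-3p and all 22 bases of miR-24-3p.

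The mature strands follow with the seed, bases 2 to 8, in capitals. They are shown because the seed decides the likely targets and the rest of the strand decides whether a read can be told from its copy.
mmu-miR-23a-3p: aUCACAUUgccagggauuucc
mmu-miR-27a-3p: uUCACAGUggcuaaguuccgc
mmu-miR-27b-3p: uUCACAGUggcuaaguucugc
mmu-miR-24-3p: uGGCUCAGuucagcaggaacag
mmu-miR-27a-5p: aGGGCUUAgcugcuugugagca
mmu-miR-27b-5p: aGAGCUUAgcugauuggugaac
miR-24-3p is the same in both clusters, and mmu-miR-23b-3p was not printed. The miR-27 3p strands share their seed and differ by 1 substitution, C19U, counted from the 5′ end with the 27a base first. Their 5p strands differ by 8 substitutions. The longest run shared by the 5p strands was 10 bases in the miR-23 pair, 9 in the miR-27 pair and 16 in the miR-24 pair.

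The 23a cluster spans 404 bases at chr8:84208518-84208921 and the 23b cluster 792 bases at chr13:63300484-63301275, both on the plus strand of GRCm38.p6. In the 23a cluster mir-24-2 overlaps an exon of the lincRNA Gm26532. The 23b cluster lies inside the protein-coding gene 2010111I01Rik on its own strand, with Fancc on the opposite strand. There mir-23b overlaps no annotated exon, while mir-27b and mir-24-1 overlap exons of transcripts of 2010111I01Rik that are annotated as processed by nonsense-mediated decay or, for mir-24-1, also as non-coding. Each miR-24 hairpin has a microRNA annotated on the other strand, mir-3074-2 and mir-3074-1. Their counts reached 2 and 5 per cell library, against 2008 to 7116 for mir-24-2.

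EV libraries were shallow, at 15071 to 28727 counts, where cell libraries held 185400 to 409969, and a floor of 3 counts was 0.0104% to 0.0199% of an EV library. In EVs a single precursor, mir-6236, took 49.9% to 79.5% of the counts. The myeloid list (mir-223, mir-142a, mir-511, mir-342, mir-146a, mir-155 and mir-21a) had counts for 7 of 7 precursors in cells, at 4805 to 52410 CPM in sum. The sum was 46000 CPM or more only in LPS cells and at most 11560 CPM in the other cell groups. Its members were uneven: mir-223 had 15 to 110 counts per cell library and mir-511 had 1 to 47. Of the lists of other cell types, the neuronal one was highest in cells, at 88.2 to 326 CPM, followed by the endothelial precursor mir-126a at 65.6 to 185 CPM. In cells the epithelial list reached 59.9 CPM, the muscle list 16.2 CPM and the liver precursor mir-122 10.8 CPM, and the red cell list was at 0. In EVs 5 of 7 myeloid precursors had counts, at 821 to 8428 CPM in sum, and mir-223 and mir-511 were at 0 in all 12 libraries. The neuronal list reached 4915 CPM in EVs, with 437 to 4915 CPM in control EVs and at most 321 CPM in the treated EVs. The muscle list was at 193 to 1512 CPM in EVs, the red cell list at 0 to 1411 CPM, mir-126a at 0 to 1263 CPM and the epithelial list at 0 to 139 CPM. The part of these in the EV results was not tested.

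The miR-23 and miR-24 copies had nearly the same count in every cell library, and the miR-27 copies differed more. Summed over the 12 cell libraries, mir-23a had 86040 counts and mir-23b 84657, mir-24-2 had 62810 and mir-24-1 62406, and mir-27a had 2541 and mir-27b 2964. Within a cell library the miR-23 copies differed by 0.0337% to 3.24%, the miR-24 copies by 0.331% to 0.944% and the miR-27 copies by 3.96% to 25.4%. The chi-square of the 2 copies over the 12 libraries, divided by its degrees of freedom, was 0.388 for miR-23, 0.486 for miR-27 and 0.0127 for miR-24, where independent counting would give a value near 1. The miR-24 copies in particular varied together far more closely than separately counted reads would. How reads that fit both copies were counted is not given in the sources used here, and most of the level of either cluster cannot be told apart from that of the other. The count of members called below therefore counts miR-23 and miR-24 once per copy, and a summed share counts shared reads once per copy if they were assigned to both.

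The members took a large share of cell libraries, and within it miR-23 and miR-24 were abundant and miR-27 was scarce. Together they made up 5.49% ± 0.476 of the counts in LPS cells, 8.76% ± 0.225 in IL-10 cells, 10.2% ± 0.694 in TGF-β cells and 8.34% ± 0.501 in control cells (SD, n = 3 each). By mean share mir-23a ranked 14 in LPS cells, 9 in IL-10 cells, 9 in TGF-β cells and 12 in control cells, and mir-24-2 ranked 19, 13, 13 and 14 in the same groups. mir-27a ranked 95, 73, 89 and 95, and mir-27b 87, 62, 61 and 90. In control cells the 23a cluster was 53.6% ± 1.35 mir-23a, 44.7% ± 1.06 mir-24-2 and 1.72% ± 0.305 mir-27a (SD, n = 3). These are shares of reads, and the ligation and amplification of each strand can affect them.

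The miR-23 pair was highest after TGF-β. In normalised CPM, counts relative to library totals that are scaled by edgeR's TMM factors, mir-23a was at 19878, 16092 and 19884 in LPS cells, at 24196, 27215 and 24424 in IL-10 cells, at 29247, 34166 and 25011 in TGF-β cells and at 17270, 20874 and 21016 in control cells. The TGF-β and IL-10 libraries all lay above the control libraries, and the LPS libraries overlapped the controls. Of all 259 precursors, 67 did not overlap between TGF-β and control cells and 83 between IL-10 and control cells, in either direction. By mean the order was TGF-β, IL-10, control and LPS, in which TGF-β and IL-10 libraries overlapped each other and IL-10 did not pass the test against control (below). mir-23b repeated these levels, with means of 18150 ± 2147 in LPS cells, 25154 ± 1623 in IL-10 cells, 29060 ± 4482 in TGF-β cells and 19174 ± 1958 in control cells (SD, n = 3 each).

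The miR-24 pair was lowest after LPS. mir-24-2 was at 13092, 12726 and 12968 normalised CPM in LPS cells, at 18125, 20173 and 16953 in IL-10 cells, at 20176, 21861 and 17020 in TGF-β cells and at 15166, 16643 and 17351 in control cells. Every LPS library lay below every library of the other groups, while the IL-10 and TGF-β libraries overlapped the controls. Separation of this kind, in either direction, was seen in 123 of 259 precursors for LPS and control. It was seen in 132 for LPS and IL-10 and in 106 for LPS and TGF-β. mir-24-1 gave 12833 ± 199 in LPS cells, 18298 ± 1660 in IL-10 cells, 19576 ± 2419 in TGF-β cells and 16270 ± 1106 in control cells (SD, n = 3 each).

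The miR-27 pair was far scarcer and had its highest mean after IL-10. mir-27b was at 680, 653 and 691 normalised CPM in LPS cells, at 984, 974 and 973 in IL-10 cells, at 843, 1058 and 734 in TGF-β cells and at 737, 594 and 728 in control cells. The IL-10 libraries lay close together and above all control libraries, and the LPS and control libraries overlapped. IL-10 and control libraries did not overlap in 83 of all 259 precursors, in either direction. mir-27a had lower means in all groups, 618 ± 22.1 in LPS cells, 812 ± 51.0 in IL-10 cells, 710 ± 124 in TGF-β cells and 625 ± 82.4 in control cells (SD, n = 3 each).

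**Figure D1:**
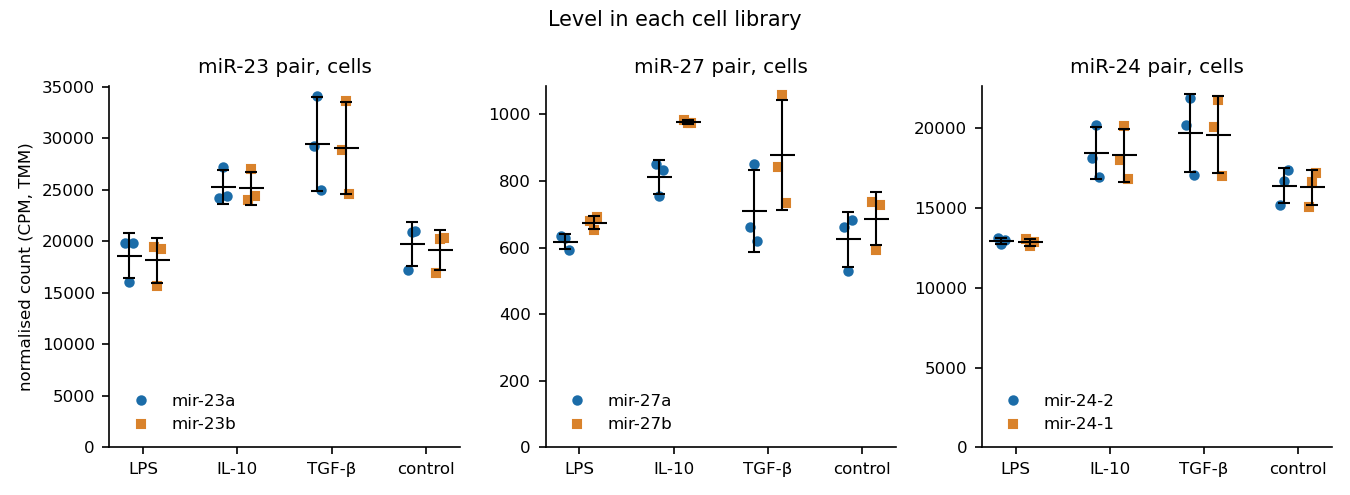
Normalised CPM of the 6 precursors in the 12 cell libraries, one panel per pair of copies; points are libraries, bars the mean and SD of 3 libraries. The copies of a pair follow each other, the miR-23 pair is highest after TGF-β and the miR-24 pair lowest after LPS.

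The 3 treatments share the same control libraries. In bulk RNA a change in the mix of cells and a change per cell cannot be told apart. After LPS the miR-24 pair fell and the other members did not pass the test. The log2 fold change of LPS over control cells was -0.34 ± 0.13 (SE) for mir-24-2 and for mir-24-1, with an adjusted p of 0.0489 in edgeR's quasi-likelihood test for each. mir-23a was at -0.08 ± 0.14, mir-23b at -0.08 ± 0.14, mir-27a at -0.01 ± 0.15 and mir-27b at -0.02 ± 0.15. Thus 2 of 6 members were called lower, against 11.2% of the 259 precursors tested in cells, and the median change of all 259 was 0.09. The calls of the miR-24 pair were lost without control library 3, LPS library 1 or LPS library 3 (adjusted p up to 0.112), where mir-24-2 was at -0.32, -0.38 and -0.37. With library totals in place of TMM factors all 6 members were called lower (mir-24-2 at -0.76), with the median of all precursors at -0.32. LPS cell libraries were also the shallowest, 185400 to 233757 counts against at least 283222 elsewhere in cells, and mir-5099 took 19.4% to 22.5% of their counts against 8.08% to 14.4% in the other cell libraries; the part of depth in the result was not tested, and without mir-5099, mir-6236 and mir-6240 mir-24-2 was at -0.42.

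IL-10 raised mir-27b and no other member past the test. mir-27b changed by 0.51 ± 0.14 on the log2 scale over control cells (edgeR adjusted p = 0.0295), a 1.43-fold increase. mir-27a was at 0.38 ± 0.14 (edgeR adjusted p = 0.0925), mir-23a at 0.36 ± 0.14, mir-23b at 0.39 ± 0.14, and mir-24-2 and mir-24-1 at 0.17 ± 0.13. The call was 1 of 6, against 5.41% of precursors called higher, with a median change of 0.05 over all. It was lost in each of the 6 fits that left out 1 library (adjusted p 0.0616 to 0.187) and under DESeq2's Wald test (adjusted p = 0.0506), and the difference between mir-27b and mir-27a in this response is taken up below with their ratio.

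TGF-β raised the miR-23 pair. mir-23a changed by 0.58 ± 0.14 over control cells (edgeR adjusted p = 0.00911), a 1.49-fold increase, and mir-23b by 0.60 ± 0.14 (edgeR adjusted p = 0.00781), a 1.52-fold increase. mir-27b was at 0.36 ± 0.14 (edgeR adjusted p = 0.129), mir-27a at 0.19 ± 0.14, and the miR-24 pair at 0.26 ± 0.13 and 0.27 ± 0.13. Called higher were 2 of 6 members, against 3.47% of precursors, where the median change of all was 0.09. Without TGF-β library 2, the highest of its group, both calls were lost (mir-23a 0.44, adjusted p = 0.0661).

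The treatments differed most from each other between LPS and the cytokines. In LPS cells all 6 members were lower than in IL-10 cells, from -0.40 ± 0.15 for mir-27a to -0.53 ± 0.15 for mir-27b (edgeR adjusted p 0.0374 and 0.0077), against 23.9% of precursors called lower and a median of 0.00 over all. The mir-27a call was lost without LPS library 1 or 3, or IL-10 library 1 or 3 (adjusted p up to 0.133). Against TGF-β cells LPS cells had 4 of 6 members lower, mir-23a at -0.66 ± 0.14, mir-23b at -0.68 ± 0.14, and mir-24-2 and mir-24-1 at -0.61 ± 0.13 (edgeR adjusted p 0.000803 or less), where 13.9% of precursors were called lower. In that comparison mir-27b was at -0.38 ± 0.15 (edgeR adjusted p = 0.0562) and mir-27a at -0.20 ± 0.15. These calls of miR-23 and miR-24 held in every fit that left out 1 library.

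IL-10 and TGF-β cells did not differ past the test in any member, with 0 of 6 called by edgeR, against 14.7% of precursors called in either direction. An unadjusted edgeR p under 0.05 was found in 0 members, against 61 of all 259 precursors. DESeq2 called 0 members, against 36 of the 259. The largest of these values was mir-23a, at -0.22 ± 0.14, with a 95% interval of -0.52 to 0.07.

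**Figure D2:**
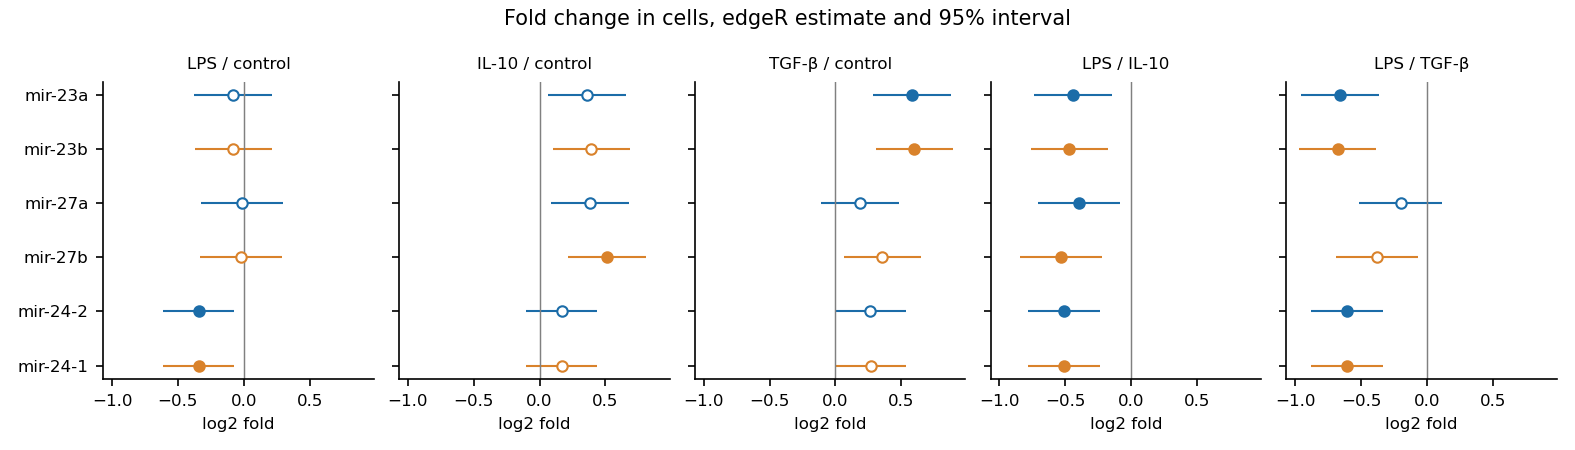
Log2 fold change of each member in 5 comparisons of cell groups, with its 95% interval; filled points passed the test at an adjusted p under 0.05. LPS over IL-10 has 6 filled points, LPS over TGF-β 4, TGF-β over control and LPS over control 2 each, and IL-10 over control 1.

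The count ratio of mir-24-2 to mir-23a differed between groups past the test, but the call depended on single libraries. Most counts of the copies cannot be told apart, so the ratio cannot be placed within 1 cluster. Ratios taken within a library do not depend on library scaling. The log2 ratio of mir-24-2 to mir-23a was -0.60, -0.34 and -0.62 in LPS cells, -0.42, -0.43 and -0.53 in IL-10 cells, -0.54, -0.64 and -0.56 in TGF-β cells and -0.19, -0.33 and -0.28 in control cells. All treated libraries lay below all control libraries. In an exact permutation test over libraries p was 0.0214 (adjusted p = 0.0429 over 10 ratio tests), with group means spread over 0.31. mir-24-1 over mir-23b, the ratio of the other copies, gave a spread of 0.33 (exact permutation test, adjusted p = 0.0429). These copies had nearly the same counts, so it adds nothing separate. The adjustment over 10 ratio tests counts such near duplicates as separate tests. Both calls were lost in 10 of the 12 fits that left out 1 library (adjusted p up to 0.105), among them each control library. The ratios of miR-27 to miR-23 did not pass (exact permutation test, adjusted p = 0.136 for mir-27a over mir-23a and 0.154 for mir-27b over mir-23b). Both had their lowest group mean after TGF-β.

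The ratio of the clusters' counts moved with treatment only by small amounts. Reads counted for both copies would hold the sums together, and a change in such reads alone would move the ratio. Its size therefore does not measure how alike the clusters respond. The log2 ratio of the summed 23a cluster to the summed 23b cluster averaged 0.0230 in LPS cells, 0.0026 in IL-10 cells, 0.0103 in TGF-β cells and 0.0235 in control cells. The exact permutation test gave p = 0.00123 (adjusted p = 0.00714), and the call held in each of the 12 fits without 1 library (adjusted p up to 0.0396). The log2 ratio of mir-23a to mir-23b was 0.0277, 0.038 and 0.0449 in LPS cells, 0.00981, 0.0106 and 0.000486 in IL-10 cells, 0.0161, 0.0237 and 0.0211 in TGF-β cells and 0.0301, 0.043 and 0.0468 in control cells (exact permutation test, adjusted p = 0.00714). The IL-10 libraries were all below those of every other group, and the TGF-β libraries were all below the LPS and control libraries.

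A read that was counted for both copies cancels in their difference. mir-23a exceeded mir-23b by 40.5 ± 12.1 counts per 100000 in LPS cells, 11.9 ± 9.52 in IL-10 cells, 42.4 ± 10.9 in TGF-β cells and 61.9 ± 16.1 in control cells (SD, n = 3 each). mir-27a stood below mir-27b in all 12 libraries, with a difference of -4.91 ± 3.41 counts per 100000 in LPS cells, -15.97 ± 3.00 in IL-10 cells, -17.06 ± 3.61 in TGF-β cells and -7.03 ± 2.10 in control cells. In this difference, which was not tested, the IL-10 and TGF-β libraries of the miR-27 pair did not overlap the LPS or control libraries. At a fixed ratio of the copies it grows with the level of the pair. In the ratio IL-10 and LPS libraries did overlap, with mir-27a at 86.4% of mir-27b in IL-10 library 1 and 85.8% in LPS library 3. As a ratio, mir-27a was 91.7% ± 5.31 of mir-27b in LPS cells, 83.2% ± 4.94 in IL-10 cells, 81.0% ± 2.97 in TGF-β cells and 91.0% ± 2.39 in control cells, and this did not pass after adjustment (exact permutation test, p = 0.0407, adjusted p = 0.0678); it passed without LPS library 3 or IL-10 library 2 (adjusted p = 0.0339 and 0.0489). For miR-24 the copies differed by 8.27 to 13.6 counts per 100000 on average, with no difference past the test between groups (exact permutation test, adjusted p = 0.728).

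**Figure D3:**
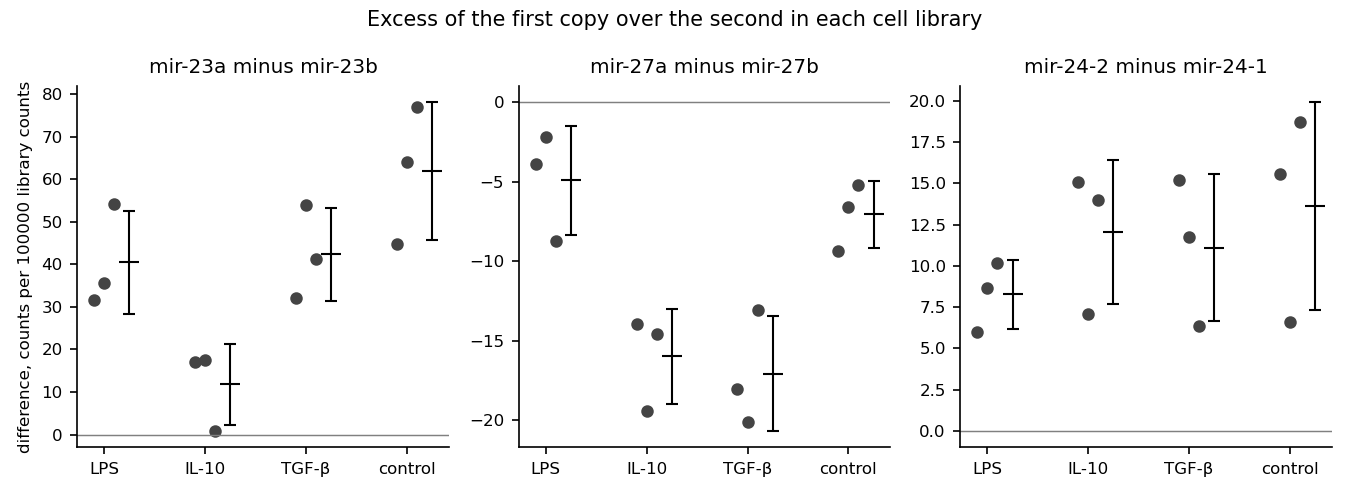
Difference in counts per 100000 library counts between the copies of each pair, 23a cluster minus 23b cluster, in the 12 cell libraries; points are libraries, bars the mean and SD of 3. The mir-23a excess is smallest after IL-10, and the mir-27b excess is larger after IL-10 and TGF-β than after LPS or in controls. The differences themselves were not tested.

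In EVs the members were a far smaller share of all counts, 1.80% ± 0.591 in LPS EVs, 0.850% ± 0.607 in IL-10 EVs, 0.543% ± 0.234 in TGF-β EVs and 0.830% ± 0.172 in control EVs (SD, n = 3 each). With mir-6236, mir-6240 and mir-5099 out of the totals the gap to cells was smaller. Shares were then 4.77%, 4.68%, 2.84% and 5.09% in these EV groups, so that LPS EVs were no longer highest. In cells they were 7.14%, 9.77%, 11.7% and 9.65%. mir-23a had 117, 127 and 177 counts in LPS EVs, 98, 32 and 17 in IL-10 EVs, 18, 26 and 32 in TGF-β EVs and 42, 35 and 59 in control EVs. The LPS libraries held more counts than all others, and IL-10 library 1 stood apart from the other IL-10 libraries. mir-24-2 had 68, 72 and 143 counts in LPS EVs, 38, 17 and 14 in IL-10 EVs, 2, 13 and 23 in TGF-β EVs and 24, 16 and 28 in control EVs, again with LPS above the rest. The LPS libraries were also the deepest of the EV libraries, with mir-6236 at 49.9% to 65.5% of their counts against 61.2% to 79.5% in the others, and the part of this in the counts was not tested.

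**Figure D4:**
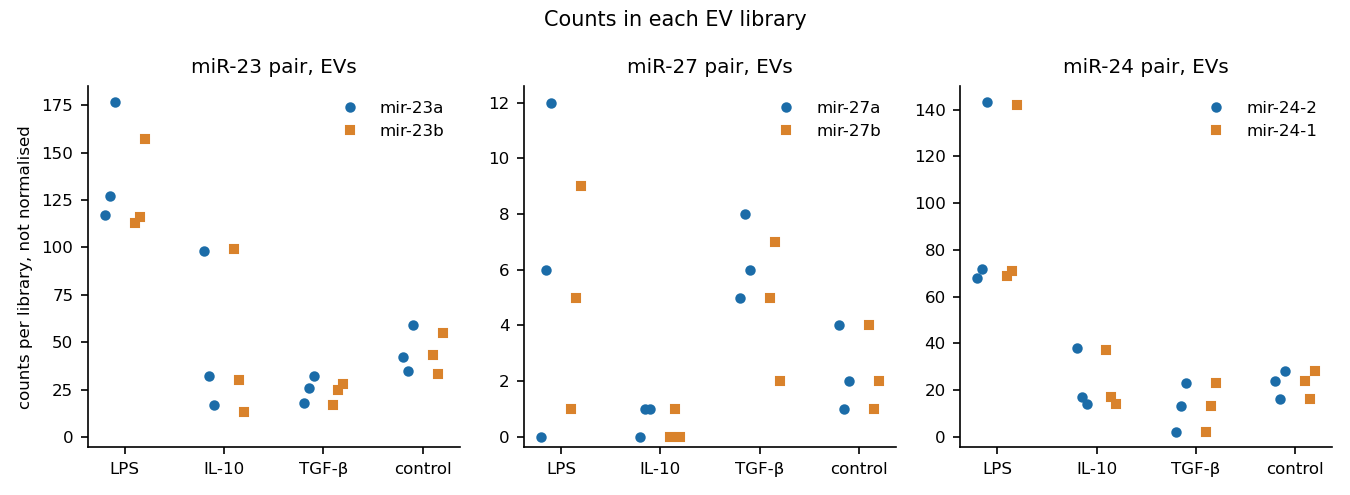
Counts of the 6 precursors in the 12 EV libraries, not normalised, one panel per pair of copies; each point is a library. LPS libraries reach 177 counts of mir-23a and 143 of mir-24-2, and no miR-27 count exceeds 12.

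After scaling, no treatment changed a member in EVs past the test. mir-23a was at 2884 ± 453 normalised CPM in LPS EVs, 2923 ± 883 in IL-10 EVs, 2155 ± 588 in TGF-β EVs and 2999 ± 324 in control EVs, and mir-24-2 at 1897 ± 572, 1568 ± 100, 1067 ± 917 and 1493 ± 119 in the same groups (SD, n = 3 each). Each treated group overlapped the controls for both, while mir-23b in TGF-β EVs lay below all control EVs, at -0.54 ± 0.40 (edgeR adjusted p = 0.700). TGF-β and control EVs did not overlap in 11 of the 71 precursors tested, in either direction. The miR-27 pair fell under the filter on low counts, so 4 of 6 members were tested. By edgeR 0 of 4 were called for LPS over control EVs (18.3% of the 71 precursors tested), 0 of 4 for IL-10 (0%) and 0 of 4 for TGF-β (4.23%). In each of these comparisons 0 of 4 had an unadjusted edgeR p under 0.05, against 18, 5 and 5 of the 71 precursors for LPS, IL-10 and TGF-β. DESeq2 called 0 of 4 in each, against 17, 0 and 5 of the 71. The 95% intervals were wide, from -0.83 to 0.72 for mir-23a and from -0.95 to 1.64 for mir-24-2 in LPS over control EVs, and hold the LPS differences of -0.08 and -0.34 measured in cells. For TGF-β the mir-23a interval in EVs was -1.27 to 0.32, against a change of 0.58 in cells.

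Whether the treatments acted differently in EVs and cells was tested as an interaction over all 24 libraries, and 0 of 6 members passed for LPS (6.07% of 280 precursors called), for IL-10 (0%) or for TGF-β (0%). The unadjusted edgeR p was under 0.05 in 2 members for LPS, 1 for IL-10 and 3 for TGF-β. Over all 280 precursors it was under 0.05 in 79, 36 and 30. DESeq2 called 2 members for LPS and 0 for IL-10 and TGF-β, against 44, 8 and 12 of the 280 precursors.

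miR-24 was lower in EVs than in cells in 3 of the 4 treatments, and miR-23 likewise by a smaller amount. In the fit over all libraries mir-24-2 changed by -1.63 ± 0.36 in IL-10, -2.19 ± 0.38 in TGF-β and -1.63 ± 0.36 in control EVs against cells (edgeR adjusted p 0.000613, 3.43e-05 and 0.000611), and mir-24-1 by -1.64 ± 0.36, -2.18 ± 0.38 and -1.62 ± 0.36. mir-23a was at -1.13 ± 0.28, -1.74 ± 0.29 and -0.90 ± 0.28 in the same treatments (edgeR adjusted p 0.0017, 2.26e-05 and 0.0109), and mir-23b at -1.21 ± 0.30, -1.83 ± 0.31 and -0.91 ± 0.29. After LPS mir-24-2 was at -0.45 ± 0.33 and mir-23a at -0.33 ± 0.27, and 0 of 6 members were called by edgeR (30.7% of precursors called). In that comparison 0 members had an unadjusted edgeR p under 0.05, against 120 of all 280 precursors. DESeq2 called 0 members, against 108 of the 280. The members called lower numbered 6 of 6 for IL-10 (15.7% of precursors called lower), 4 of 6 for TGF-β (17.9%) and 4 of 6 for control (12.5%). Medians over all 280 precursors were 0.00 for LPS, -0.80 for IL-10, -0.74 for TGF-β and -0.54 for control.

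These calls rest on the scaling between compartments. With DESeq2's size factors, which move the control median to 0.28, 0 members were called in IL-10 and 0 in control, and with library totals, which move it to -2.68, all 6 were called lower after LPS too. The miR-23 calls were also lost without any of the control cell libraries in the control comparison (adjusted p up to 0.362) and without any of the IL-10 cell libraries in the IL-10 comparison (up to 0.111). Within TGF-β the miR-23 and miR-24 calls held in every fit without 1 library and under both scalings, but their size did not. mir-23a was at -0.69 with DESeq2's size factors and at -4.23 with library totals, and mir-24-2 at -1.12 and -4.63. Without TGF-β EV library 1, 2 or 3 mir-23a was at -2.28, -2.56 and -2.78, and mir-24-2 at -2.39, -2.96 and -3.74.

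The miR-27 pair was at the limit of counting in EVs. mir-27a had 0, 6 and 12 counts in LPS EVs, 0, 1 and 1 in IL-10 EVs, 5, 8 and 6 in TGF-β EVs and 4, 1 and 2 in control EVs. mir-27b had 1, 5 and 9 in LPS EVs, 0, 1 and 0 in IL-10 EVs, 5, 7 and 2 in TGF-β EVs and 4, 1 and 2 in control EVs. The TGF-β libraries held the most mir-27a of the shallow groups. In TGF-β EVs against cells mir-27a was called higher, at 1.64 ± 0.48 (edgeR adjusted p = 0.00772), where 25.4% of precursors were called higher, and the call was lost without any 1 of the 3 TGF-β EV libraries (adjusted p up to 0.432). mir-27b was at 0.90 ± 0.47 (edgeR adjusted p = 0.128). Both values moved with the scaling. With DESeq2's size factors mir-27a was at 2.68 and mir-27b at 1.94 (edgeR adjusted p 0.000225 and 0.00444), both called higher. With library totals mir-27a was at -0.86 and mir-27b at -1.61 (edgeR adjusted p 0.0987 and 0.00307), so that mir-27b was called in opposite directions. After IL-10 both copies were called lower, on 2 counts of mir-27a and 1 of mir-27b in all IL-10 EV libraries. Both calls were lost without IL-10 EV library 1 (edgeR adjusted p up to 0.263 for mir-27a and 0.0562 for mir-27b), and the mir-27a call also without any of the IL-10 cell libraries. Their summed share was 0.0508 times that of cells for mir-27a (95% exact interval 0.00614 to 0.184) and 0.0212 times for mir-27b (0.000537 to 0.119), intervals that cover counting error only.

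**Figure D5:**
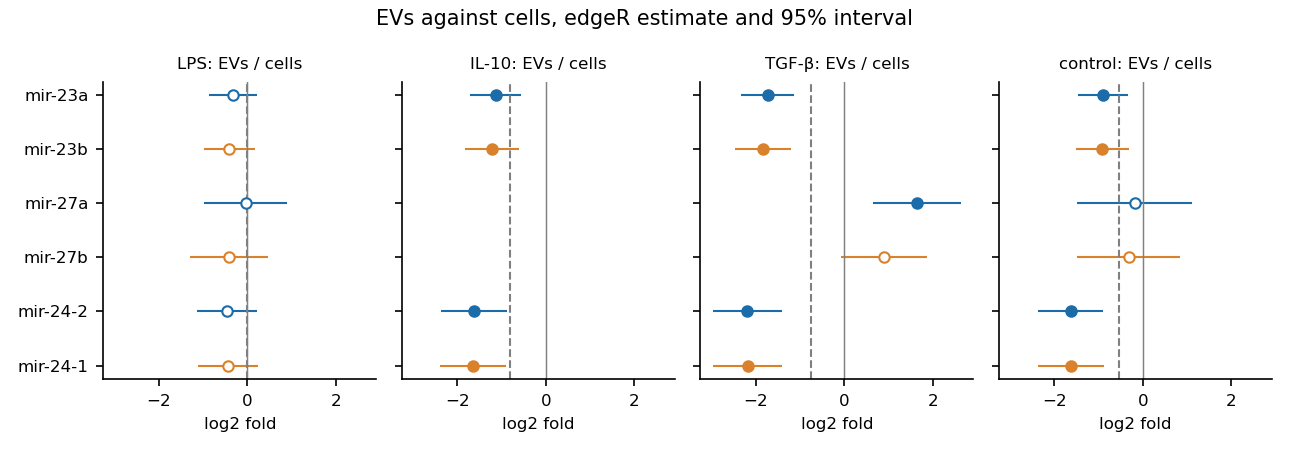
Log2 fold change of EVs over cells for each member, with its 95% interval, in the 4 treatments; filled points passed the test, and the dashed line is the median of all 280 precursors. The miR-27 pair is not drawn for IL-10, where EVs held 2 and 1 counts. miR-24 lies left of the dashed line in all 4 treatments, with open points after LPS.

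The count ratio of the clusters differed slightly between compartments, on few counts in EVs. The log2 ratio of the 23a to the 23b cluster averaged 0.0783 in EVs, over libraries from -0.0203 to 0.241, and 0.0149 in cells, over libraries from 0.0000936 to 0.0294. The EV range held the whole cell range. Its highest value, 0.241, was in IL-10 EV library 3, where mir-23a had 17 counts and mir-23b 13. The part of low counts and of shared reads in this result was not tested. Permuting compartment within treatments gave a difference of 0.0635 (exact stratified permutation test, two-sided, p = 0.0042, adjusted p = 0.014), which held without each of the 24 libraries. Across treatments the EV ratios did not differ past the test (exact permutation test, adjusted p = 0.728). In EVs the miR-24 copies were equal in 8 of 12 libraries and differed by at most 1 count in the others.

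Among 253 other precursors compared over the 12 cell libraries, the 5 with the pattern most like the 23a cluster were mir-467a-2 (Pearson's r = 0.87, Spearman's rho = 0.88), mir-339 (0.87 and 0.87), mir-297b (0.86 and 0.80), let-7j (0.85 and 0.85) and let-7b (0.84 and 0.84). All precursors of a library share its depth and scaling, and the cell libraries differed in depth, from 185400 to 409969 counts. The 23b cluster, whose sum nearly equals that of the 23a cluster, gave the same 5 and adds nothing separate. let-7j, for example, was at 1428 ± 45.7 normalised CPM in LPS cells, 1654 ± 166 in IL-10 cells, 2274 ± 269 in TGF-β cells and 1305 ± 98.1 in control cells.

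Counts of called precursors in related lists, none of which was tested against the members, are given for comparison. The lists overlap: mir-155 and mir-21a stand in all 3 and mir-146a in 2. Of 12 precursors listed as TGF-β responsive beside the members, 7 were tested in cells. After TGF-β 0 of these rose and 1 fell, mir-21a at -1.03 ± 0.14 (edgeR adjusted p = 4.14e-05), where 3.47% of all precursors rose and 3.09% fell. The list's median was 0.26 after TGF-β, against 0.31 for the members and 0.09 over all. After IL-10 1 of the 7 rose (5.41% of all), with a list median of 0.32, against 0.37 for the members and 0.05 over all. After LPS 5 of the 7 rose and 2 fell, where 20.8% of all precursors rose and 11.2% fell, and mir-155, a regulator of inflammatory signalling, changed by 4.06 ± 0.30 (edgeR adjusted p = 1.4e-10). The list's median was 0.74 after LPS, against -0.08 for the members. Of 5 tested precursors listed as induced through NF-kB all 5 rose after LPS, mir-155 and mir-21a among them, and mir-146a, which damps Toll-like receptor signalling, was at 5.63 ± 0.18 (edgeR adjusted p = 2.29e-17). Of 7 myeloid precursors 4 rose and 2 fell after LPS, 3 rose after IL-10 and 2 fell after TGF-β, 1 of these being mir-223 at -1.70 ± 0.25 (edgeR adjusted p = 4.14e-05).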

How the data were processed

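Small RNA libraries of BV2 cells and EVs (8 groups, 3 libraries each) were analysed from the deposited counts, whole numbers of reads per microRNA precursor that the authors did not normalise. Per the labels' protocols, library preparation used SMARTer smRNA-seq chemistry with 18 cycles of PCR. The submitters' processing notes name DESeq2. Not given in the sources used here were the aligner, the genome build and the handling of reads that fit several precursors. The series has 8 count tables, of which 6 entered the analysis; the other 2 duplicate tables already included. Columns are numbered 1 to 3 within a group; whether cells and EVs with the same number share a culture is not given, and no pairing was used.

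Treatments were compared with edgeR 4.0.16 (R 4.3.3, limma 3.58.1): TMM factors, filterByExpr with a minimum count of 10, a quasi-likelihood F test, 1 fit per compartment, and 1 fit over 24 libraries for EVs against cells and interactions. Benjamini-Hochberg adjustment ran over all precursors tested, with calls under 0.05. Within-library log2 ratios (pseudocount 0.5) were tested by exact permutation over libraries. DESeq2 1.42.0 was an alternative. The scripts were tested on simulated data. The rule for named precursors took all members, the 5 most alike per cluster by Pearson's r, and up to 4 called precursors per related list; examples were given from these. The members and lists were chosen with earlier results of these data known. The exact intervals of summed EV shares relative to cells cover counting error only. The SE of a log2 fold change was derived from that change and the F statistic of the edgeR test, and the intervals from this SE. Both are approximate, most of all at low counts. Sequences are from RefSeq, overlaps from GENCODE M21.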

Additional observations from a re-analysis of the deposited data

How the results depend on the processing

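The settings tried were DESeq2's size factors, library totals, no filter, a mean of at least 50 counts, a robust prior, removal of mir-6236, mir-6240 and mir-5099, copies summed (for the miR-24 pair, and for each pair, the last chosen after seeing the data), other pseudocounts of the ratios, DESeq2's Wald test, only the groups compared, and each library left out in turn. Counts of members called in LPS over TGF-β, LPS over IL-10 and IL-10 over TGF-β cells, in the 3 EV treatment comparisons, in TGF-β EVs against cells and in the IL-10 and TGF-β interactions stayed within 1.5 times under every setting. These counts take calls in both directions together. In TGF-β EVs against cells mir-27b was called higher with size factors and lower with library totals. LPS over control cells gave 6 members with library totals and 0 to 2 without 1 library. IL-10 over control cells gave 0 with library totals, no filter, the 3 abundant precursors removed, summed pairs, DESeq2 and only the groups compared, and 0 to 0 without 1 library, with mir-24-2 at -0.052 and mir-24-1 at -0.051 under library totals. TGF-β over control cells gave 0 to 2 without 1 library, and mir-27a in LPS over control cells -0.25 to 0.025.

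Control EVs against control cells gave 0 with size factors and with a mean of 50 counts, 2 with the 3 precursors removed, DESeq2 or only the groups compared, and 2 to 4 without 1 library; for IL-10 it gave 0, 0, 2 (DESeq2), 3 (only the groups compared) and 3 to 6; for LPS it gave 6 with library totals. The LPS interaction gave 3 with library totals, 2 with DESeq2 and 2 with only the groups compared. In control EVs against cells mir-27a was at 0.62 and mir-27b at 0.48 with size factors, 0.68 and 0.55 with a mean of 50 counts, 0.17 and 0.035 with the 3 precursors removed, 0.62 and 0.49 with DESeq2, mir-27a at 0.11 with only the groups compared, and they ranged from -1.45 to 0.20 and from -1.58 to 0.047 without 1 library. In LPS EVs against cells mir-27a was at 0.28, 0.26, 0.29, 0.29 and 0.063 under the same settings and -0.81 to 0.31 without 1 library. In TGF-β EVs against cells mir-27a was at -0.86 and mir-27b at -1.61 with library totals, and mir-27b at -0.080 with no filter and -0.36 to 1.27 without 1 library. The cause was not tested.

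The spread of log2 ratios without 1 library was 0.15 to 0.22 for mir-27a over mir-27b, 0.28 to 0.35 for mir-24-2 over mir-23a and 0.30 to 0.36 for mir-24-1 over mir-23b. With mir-6236, mir-6240 and mir-5099 out of the totals the members' share was 7.14%, 9.77%, 11.7% and 9.65% in LPS, IL-10, TGF-β and control cells and 4.77%, 4.68%, 2.84% and 5.09% in the EVs of the same groups. No paired analysis was possible because the labels give no replicate numbers and nothing given ties same-numbered columns to a shared culture. Depth limits the EVs, where miR-27 had 0 to 12 counts per library.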
